A study of Mus musculus with 16 samples.

Results

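The subunits of the hypoxia-inducible factors (HIFs) and the enzymes that sense oxygen for them were examined in embryonic hearts, as 9 genes chosen by name: Egln1, Egln2, Egln3, Hif1an, Vhl, Hif1a, Epas1, Hif3a and Arnt. All probes annotated to these genes were taken, which gave 12 of the 25696 probes on the array, and all 12 were among the 14058 kept for testing. They cover 8 of the 9 genes, of 10153 genes named on the array (9697 with a kept probe), with 3 probes for Egln1, 2 each for Egln3 and Arnt and 1 each for Egln2, Vhl, Hif1a, Epas1 and Hif3a. Hif1an had no annotated probe and was not analysed here.

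The series holds 16 arrays of RNA from whole hearts of mouse embryos at E9.25 (22 to 24 somites), on a mixed C57/BL6;129Ola background. KO hearts (n = 3) were MesP1-cre:RBPJlox/lox, DKO hearts (n = 4) MesP1-cre:RBPJlox/lox//Axin2-/- and DKOhet hearts (n = 2) MesP1-cre:RBPJlox/lox//Axin2+/-. HetDKO hearts (n = 3) were MesP1-cre:RBPJlox/+//Axin2-/-, and control hearts (n = 4) were labelled wild type. Whether control hearts carry MesP1-cre is not stated in the labels, so an effect of Cre cannot be told apart from that of the alleles against control. Rbpj encodes the DNA-binding partner of the Notch receptors, and Axin2 a scaffold that limits Wnt signalling. MesP1-cre acts in early mesoderm, so Rbpj is deleted in cells of that origin and not in all cells of the embryo, while the Axin2 alleles are as labelled in every cell. KO, DKO and DKOhet hearts share the deletion of both floxed copies of Rbpj and are called Rbpj-deleted below. DKO and hetDKO hearts both carry MesP1-cre and lack Axin2, and differ in the number of floxed copies of Rbpj. Probes for Rbpj and Axin2 were not analysed here, so the labels were not checked against the targeted genes. Whether arrays of a genotype come from different embryos is not stated in the labels, so the p-values cover the spread between these arrays, and part of it may be technical.

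HIF is a pair of proteins, an oxygen-regulated alpha subunit (made from Hif1a, Epas1 or Hif3a) and the constant partner ARNT. With oxygen present, the prolyl hydroxylases made from Egln1, Egln2 and Egln3 mark the alpha subunit, the VHL protein recognises the mark, and the subunit is degraded. Hif1an encodes an asparagine hydroxylase that blocks the recruitment of coactivators. Low oxygen slows these enzymes, HIF builds up, and among the genes it then induces are Egln1 and Egln3 themselves, a known negative feedback. The heart tube at this stage lies in an embryo with low oxygen, and HIF is active in normal cardiac development. Because alpha subunits are controlled mainly as proteins, mRNA levels such as those measured here do not report HIF protein.

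The 16 arrays resembled each other in quality. Each detected 12360 to 13196 probes above its own negative control beads (detection p under 0.05), with background means of 111 to 133 intensity units. Of the 9 measured myocardial markers, 8 or 9 were detected on every array. KO replicate 2 stood apart from the other arrays on the third principal component (-45.8, against -15.9 to 13.2 for the rest), and control replicate 4 was at the low end of the second (-30.2). Beadchip 1 held 2 arrays each of KO, DKO, hetDKO and control hearts, and beadchip 2 held 1 KO, 2 DKO, 2 DKOhet, 1 hetDKO and 2 control arrays. Values called signal are background-corrected, quantile-normalised log2 intensities, so that a step of 1 means double the brightness. Values called intensity are as deposited.

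The prolyl hydroxylase genes Egln3 and Egln1 were higher in Rbpj-deleted hearts with or without Axin2, and of the other members only Vhl passed the test, in KO hearts. Against control, 6 of the 12 probes passed an adjusted p of 0.05 in KO hearts, 4 in DKO hearts and 5 in DKOhet hearts, all of them higher. The probes that passed were the 3 of Egln1 and the bright probe of Egln3 in each of these genotypes, the dim probe of Egln3 in KO and DKOhet hearts, and Vhl in KO hearts. Of all 14058 probes, 3.61% were higher and 3.97% lower in KO hearts, 6.68% higher and 6.51% lower in DKO hearts, and 4.3% higher and 4.32% lower in DKOhet hearts. The members were chosen with earlier results of these data known, so their counts beside these shares are not independent evidence. In hetDKO hearts none of the 12 probes passed in limma, against 0% of all probes. There 1 of the 12, that of Vhl, had an unadjusted p under 0.05, as did 545 of all 14058 probes. Between DKO and hetDKO hearts 4 of the 12 passed, all higher in DKO hearts, against 4.08% of all probes higher and 3.78% lower.

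No array is shared between the comparison of KO with control and that of DKO with hetDKO, and the same 4 probes (the 3 of Egln1 and the bright one of Egln3) passed in both. The other comparisons share control arrays. Groups did not overlap at 7 of the 12 probes in KO against control (20.4% of all probes), 6 in DKO against control (19.3%), 6 in DKOhet against control (30.6%) and 7 in DKO against hetDKO (26.3%). The median log2 difference over the 12 probes was 0.49 in KO, 0.42 in DKO, 0.25 in DKOhet and -0.11 in hetDKO hearts against control, beside medians over all probes of -0.02, -0.02, -0.02 and 0.00. Because whole hearts were measured, more RNA per cell and more cells that express a gene cannot be told apart.

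**Figure D1:**
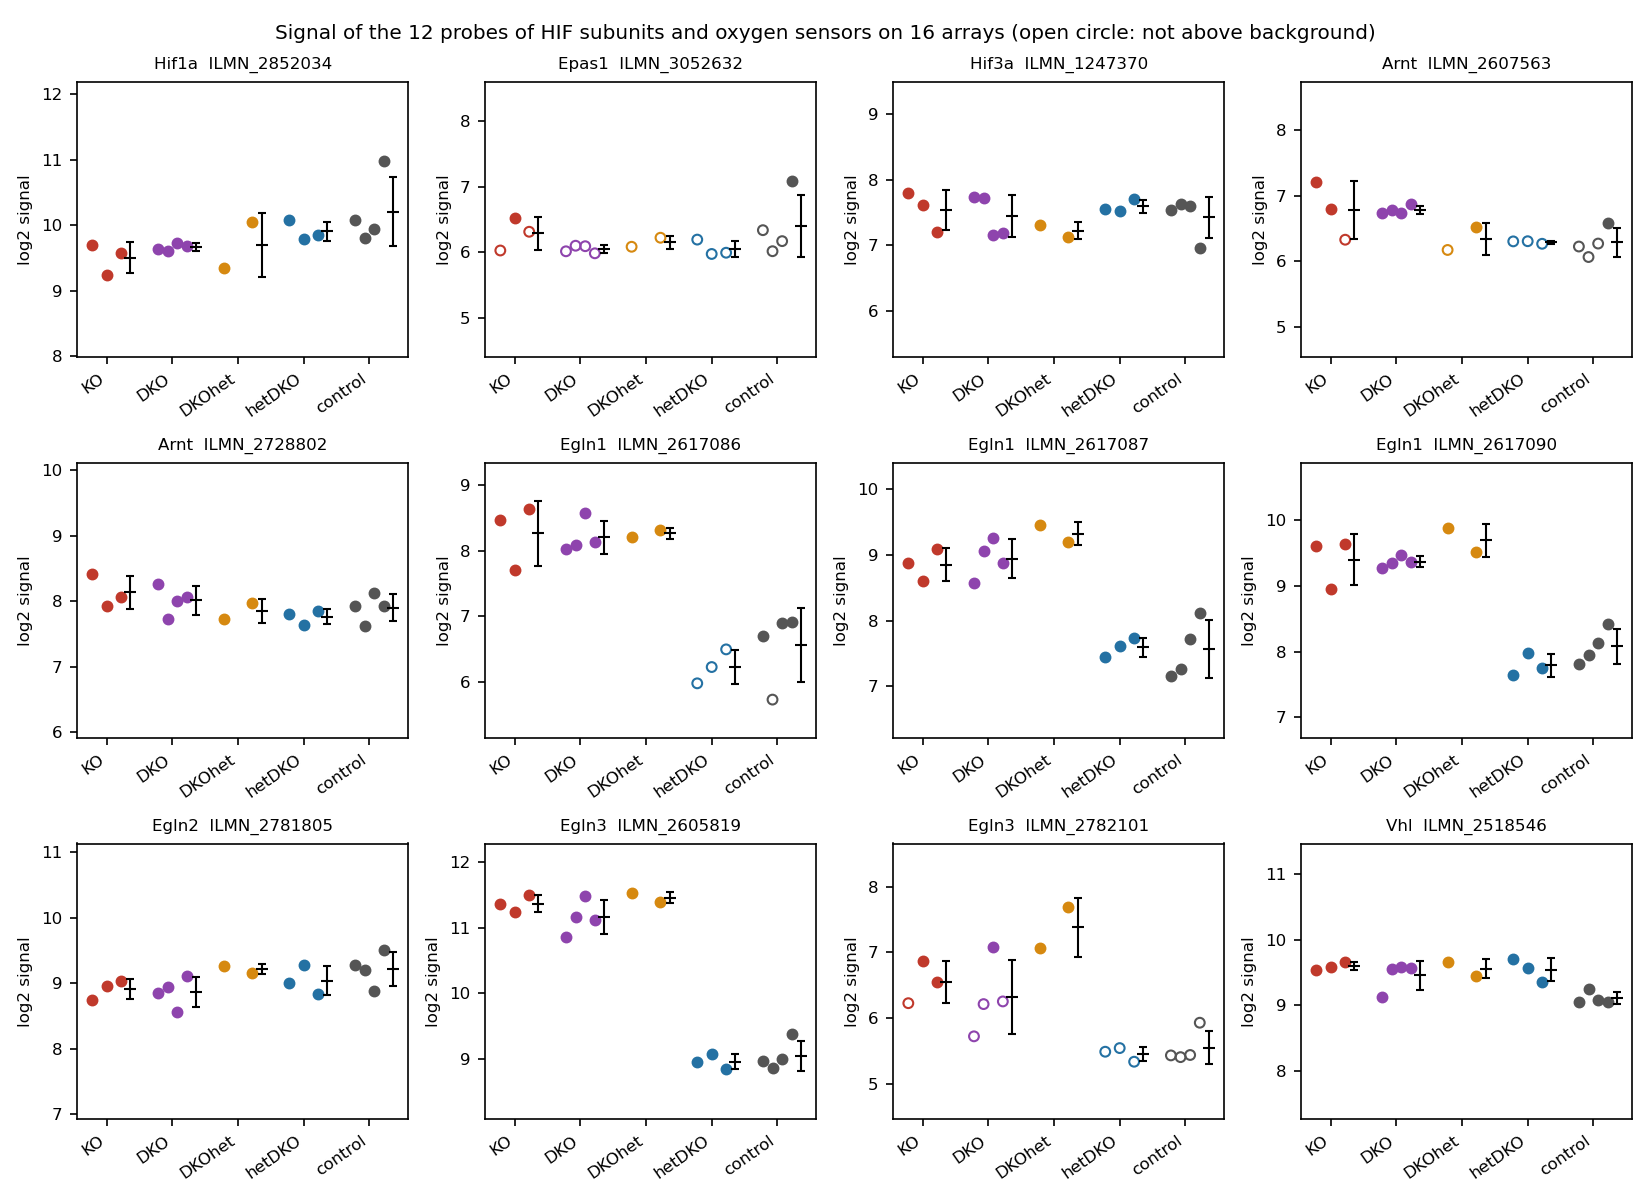
Log2 signal of each of the 12 probes on the 16 arrays, by genotype, with filled circles for arrays on which the probe was above background (detection p under 0.05), open circles for the rest, and a bar with the mean ± SD. Each panel spans the same number of log2 units around its own centre, and panels should not be set against each other in height. The 3 probes of Egln1 and the bright probe of Egln3 show KO, DKO and DKOhet arrays above all hetDKO and control arrays.

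The promoters of the 3 prolyl hydroxylase genes are shown because the text describes 2 of these genes that moved together and 1 that did not. The sequences are from RefSeq (GRCm38.p6) and run 5′ to 3′ in the direction of the gene, from 250 bases before the start site to 50 after it. Capitals mark ACGTG or GCGTG, or their reverse complement, the core letters that HIF is known to bind. Egln3 lies on chromosome 12, Egln1 on chromosome 8 and Egln2 on chromosome 7, all on the minus strand.
Egln3 (chr12:54203825-54204124, minus strand): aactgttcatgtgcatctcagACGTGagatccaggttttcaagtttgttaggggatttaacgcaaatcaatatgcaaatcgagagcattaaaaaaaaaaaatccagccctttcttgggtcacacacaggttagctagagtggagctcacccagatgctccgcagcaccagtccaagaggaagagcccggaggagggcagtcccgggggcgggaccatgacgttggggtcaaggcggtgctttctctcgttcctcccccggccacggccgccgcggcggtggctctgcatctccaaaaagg
Egln1 (chr8:124949205-124949504, minus strand): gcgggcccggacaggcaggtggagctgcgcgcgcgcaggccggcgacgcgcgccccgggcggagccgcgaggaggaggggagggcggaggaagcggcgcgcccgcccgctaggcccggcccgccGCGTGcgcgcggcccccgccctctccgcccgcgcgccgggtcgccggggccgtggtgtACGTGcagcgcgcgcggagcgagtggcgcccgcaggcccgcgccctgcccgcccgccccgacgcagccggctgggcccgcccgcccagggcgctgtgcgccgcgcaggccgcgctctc
Egln2, upstream start (chr7:27166753-27167052, minus strand): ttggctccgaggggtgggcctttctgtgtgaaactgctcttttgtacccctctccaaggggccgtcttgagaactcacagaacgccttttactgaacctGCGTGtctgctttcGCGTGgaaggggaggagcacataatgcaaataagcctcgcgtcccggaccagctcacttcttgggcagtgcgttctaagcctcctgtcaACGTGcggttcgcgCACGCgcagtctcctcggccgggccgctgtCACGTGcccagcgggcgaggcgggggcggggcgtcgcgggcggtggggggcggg
The Egln3 window held 1 match, which began at position -229 (position -1 is the base before the start site). The Egln1 window held 2, which began at -126 and -68. The Egln2 window held 6, of which 2 are a pair that overlap on opposite strands at the start site itself, and a downstream Egln2 start held 1 more. Both strands were searched, and 43.8% of the 32851 promoters of the same length hold at least 1 match. Of the other members, Hif1a held 3 matches (a pair of them overlapping on opposite strands), Hif3a 2, Arnt 1, and Vhl and Hif1an 0 in these windows. A match in this window was present for Egln1, Egln3, Egln2, Hif1a, Hif3a and Arnt alike, and the promoter of Epas1 was not analysed here. A match is a run of letters and not a shown binding site, and HIF sites outside the window were not looked for.

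Egln3 encodes the prolyl hydroxylase whose mRNA is known to respond most to low oxygen in many cell types. Its bright probe, ILMN_2605819, had intensities of 2565.4, 2512.8 and 2680.4 on the 3 KO arrays, and of 1950.2, 2749.2, 3146.6 and 2435.7 on the 4 DKO arrays. It had 2804.1 and 2727.6 on the 2 DKOhet arrays. It had 573, 663.5 and 507.9 on the 3 hetDKO arrays, and 600.3, 542.5, 590.2 and 859.6 on the 4 control arrays. The lowest Rbpj-deleted array, a DKO heart at 1950.2, was more than any hetDKO or control array, the highest of which was control replicate 4 at 859.6.

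On the log2 scale the bright Egln3 probe averaged 11.37 ± 0.13 in KO hearts (SD, n = 3) and 9.05 ± 0.23 in control hearts (SD, n = 4), a log2 difference of 2.32 (SE 0.15), or 4.99-fold (limma adjusted p = 3.64e-06). It averaged 11.16 ± 0.26 in DKO hearts (SD, n = 4), 4.31-fold above control (limma adjusted p = 1.33e-06). It averaged 11.46 ± 0.09 in DKOhet hearts (SD, n = 2), 5.32-fold above control (limma adjusted p = 1.18e-05). These differences were several times the spread within any group. In hetDKO hearts the signal was 8.95 ± 0.11 (SD, n = 3), and the difference from control was -0.10 with a 95% confidence interval of -0.42 to 0.23 (limma adjusted p = 0.998). DKO hearts were 4.61-fold above hetDKO hearts (log2 difference 2.21, limma adjusted p = 2.79e-06).

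The order of the Egln3 levels ran DKOhet, KO, DKO, control and hetDKO. The neighbours control and hetDKO did not differ beyond their spread, and neither did DKO and KO (log2 difference -0.21, interval -0.54 to 0.12, limma adjusted p = 0.992). DKO and DKOhet hearts differed by -0.30 (interval -0.67 to 0.07, limma adjusted p = 0.9997), and DKOhet was not tested against KO. The gap between DKO and control was the only tested one in that order that passed. The rise was also seen within each beadchip. KO hearts were higher than control hearts by 2.45 within beadchip 1 and 2.12 within beadchip 2, and DKO hearts by 2.20 and 2.02, with a limma adjusted p of at most 0.0383 in these 4 values. DKO hearts exceeded hetDKO hearts by 2.28 within beadchip 1 (limma adjusted p = 0.00790) and by 2.07 within beadchip 2, where 2 DKO arrays and 1 hetDKO array gave an adjusted p of 0.113.

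The dim Egln3 probe, ILMN_2782101, lay near the background of the arrays. It had intensities of 164, 229.9 and 180.3 on the KO arrays and of 136, 195.3, 239.8 and 186.4 on the DKO arrays. It had 240.2 and 317.3 on the DKOhet arrays, then 118.4, 132.9 and 102.5 on the hetDKO arrays and 113.4, 114.8, 114.3 and 157.5 on the control arrays. It passed the detection threshold on 2 of the 3 KO arrays, 1 of the 4 DKO arrays and both DKOhet arrays, and on 0 of 3 hetDKO and 0 of 4 control arrays. The DKO and control groups overlapped, since DKO replicate 1 (136) was below control replicate 4 (157.5), while KO and DKOhet arrays were all above control.

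Because no control array detected the dim probe, only a lower bound of its fold can be given, against the lowest signal at which probes were detected on those arrays. Its log2 signal was 7.38 ± 0.45 in DKOhet hearts (SD, n = 2) and 5.55 ± 0.25 in control hearts (SD, n = 4), at least 1.90-fold higher (limma adjusted p = 0.00284). The DKOhet call was lost in 1 of 17 alternatives, within beadchip 2, which held both DKOhet arrays (limma adjusted p = 0.0723). The probe's log2 signal was 6.55 ± 0.32 in KO hearts (SD, n = 3), at least 1.07-fold higher than control (limma adjusted p = 0.0348). That call was lost in 5 of 7 fits that left out 1 array (KO replicate 2 or 3, or control replicate 1, 2 or 3), with adjusted p-values of 0.0296 to 0.115 over the 7. Over all alternatives the call was lost in 8 of 19, among them that without a probe filter (limma adjusted p = 0.0580). In DKO hearts it was 6.32 ± 0.56 (SD, n = 4) with a limma adjusted p of 0.0513, and no bound above 1 could be given. It passed there without DKO replicate 1 (0.0209) and without control replicate 4 (0.0383). Over all alternatives it passed there in 8 of 20, among them those without background correction (limma adjusted p = 0.0333) and with array weights (0.0159). With the replicate number as a block, which pairs the DKO and control arrays, the DKO adjusted p was 0.0375. DKO hearts against hetDKO hearts gave 6.32 ± 0.56 (SD, n = 4) and 5.45 ± 0.11 (SD, n = 3), with a limma adjusted p of 0.0597, or 0.0266 without DKO replicate 1.

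The comparison of the 2 Egln3 probes asks whether they report the same change. Both passed the test in KO and DKOhet hearts against control, and in DKO hearts the bright one passed and the dim one did not. The dim one lay close to the threshold there (limma adjusted p = 0.0513) and passed in 8 of 20 alternatives. The bright signal minus the dim signal was taken on each array, which leaves the difference between the probes' own brightness in every group alike. It averaged 4.82 ± 0.40 in KO hearts (SD, n = 3), 4.84 ± 0.31 in DKO hearts (SD, n = 4), 4.08 ± 0.54 in DKOhet hearts (SD, n = 2), 3.50 ± 0.03 in hetDKO hearts (SD, n = 3) and 3.50 ± 0.05 in control hearts (SD, n = 4). Every Rbpj-deleted array (3.70 to 5.14) was above every hetDKO and control array (3.45 to 3.56).

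This difference of signals was 1.34 higher in DKO than in control hearts (two-sided exact permutation p = 0.0286, the smallest that 4 against 4 arrays can give), and 1.32 higher in KO than in control hearts (exact permutation p = 0.0571, the smallest for 3 against 4). DKO against hetDKO gave 1.34 (exact permutation p = 0.0571, the smallest for 4 against 3), and DKOhet against control 0.58 (exact permutation p = 0.133, the smallest for 2 against 4). The DKOhet value was 0.20 without DKOhet replicate 1 and 0.96 without DKOhet replicate 2. HetDKO against control gave -0.0007 (exact permutation p = 1). After Benjamini-Hochberg adjustment over the 5 comparisons the values were 0.0952 for KO, DKO and DKO against hetDKO, 0.167 for DKOhet and 1 for hetDKO, so none passed 0.05. With their numbers of arrays, the comparisons other than DKO against control could not reach 0.05 even before adjustment. The dim probe was not detected on the hetDKO and control arrays, and an offset of 16 was added to each signal after background correction, which makes the log2 changes of dim probes smaller. With an offset of 50 in its place, the difference was 1.59 in KO, 1.54 in DKO, 1.03 in DKOhet and -0.03 in hetDKO hearts against control. Without background correction it was 1.45, 1.38, 1.07 and -0.004 in the same order. These values compare measured signals, and with the dim probe undetected on the hetDKO and control arrays they do not show that the probes report unequal changes of the transcript. The part of background in them was not tested, and where the probes lie in the Egln3 transcript was not analysed here.

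**Figure D2:**
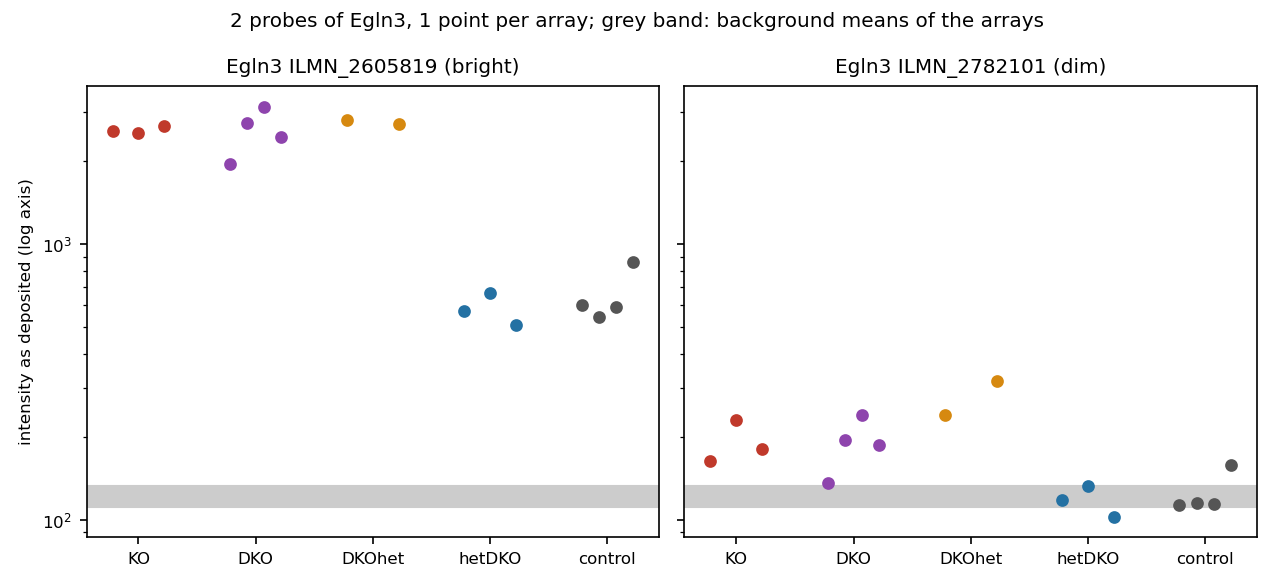
Deposited intensity of the bright and the dim probe of Egln3 on each of the 16 arrays, by genotype, on a log axis shared by both panels, with the range of the arrays' background means (111 to 133) in grey. The bright probe separates the Rbpj-deleted arrays (1950.2 to 3146.6) from the others (507.9 to 859.6), while the dim probe lies in or near the grey band on hetDKO and control arrays (102.5 to 157.5).

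Egln1 encodes the main oxygen sensor of most cells, and its loss in mice is known to be lethal before birth. The brightest of its probes, ILMN_2617090, had log2 signals of 9.61, 8.95 and 9.64 on the KO arrays and of 9.28, 9.35, 9.48 and 9.37 on the DKO arrays. It had 9.88 and 9.52 on the DKOhet arrays. It had 7.64, 7.98 and 7.75 on the hetDKO arrays and 7.81, 7.95, 8.13 and 8.42 on the control arrays. The lowest Rbpj-deleted array, KO replicate 2 at 8.95, was above the highest control array at 8.42, so these groups did not overlap.

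This Egln1 probe averaged 9.40 ± 0.39 in KO hearts (SD, n = 3) and 8.08 ± 0.26 in control hearts (SD, n = 4), a log2 difference of 1.32 (SE 0.18), or 2.50-fold (limma adjusted p = 0.000797). DKO hearts were 2.45-fold (limma adjusted p = 0.000379) and DKOhet hearts 3.07-fold (limma adjusted p = 0.000468) above control. HetDKO hearts differed from control by -0.29 (interval -0.68 to 0.10, limma adjusted p = 0.998), and DKO hearts were 2.99-fold above hetDKO hearts (limma adjusted p = 0.000152). Without KO replicate 2, the KO difference stayed past the threshold, as it did in each of the 7 fits that left out 1 array (1.20 to 1.55). Within beadchip 1 the KO difference was 1.66 (limma adjusted p = 0.00897), and within beadchip 2, which held that 1 KO array, it was 0.76 (adjusted p = 0.332). For DKO hearts the difference from control was 1.41 within beadchip 1 (limma adjusted p = 0.0161) and 1.17 within beadchip 2 (adjusted p = 0.180).

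The other probes of Egln1 were also higher in Rbpj-deleted hearts. ILMN_2617087 rose 2.46-fold in KO, 2.61-fold in DKO and 3.41-fold in DKOhet hearts against control (limma adjusted p = 0.00337, 0.000962 and 0.00111), and 2.55-fold in DKO against hetDKO hearts (limma adjusted p = 0.00277). ILMN_2617086 rose 3.27-fold in KO, 3.12-fold in DKO and 3.26-fold in DKOhet hearts against control (limma adjusted p = 0.00266, 0.00133 and 0.00582). It was above background on 0 of 3 hetDKO and 3 of 4 control arrays, and on all Rbpj-deleted arrays. Against hetDKO hearts (6.23 ± 0.26, SD, n = 3), DKO hearts (8.20 ± 0.25, SD, n = 4) were at least 3.12-fold higher by this probe (limma adjusted p = 0.000855). Across the 16 arrays the 3 Egln1 probes correlated pairwise at r of 0.94 to 0.97, and at 0.61 to 0.79 once each group's mean was taken off. The probes share a gene annotation and the same arrays, and their positions in the transcript were not analysed here.

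The levels of Egln1 by ILMN_2617090 ran DKOhet, KO, DKO, control and hetDKO, the same order as for the bright Egln3 probe. The other Egln1 probes ran in other orders: DKOhet, DKO, KO, hetDKO and control by ILMN_2617087, and KO, DKOhet, DKO, control and hetDKO by ILMN_2617086. DKO and KO hearts differed by -0.03 (interval -0.42 to 0.35, limma adjusted p = 0.998), and DKO and DKOhet hearts by -0.33 (interval -0.77 to 0.11, limma adjusted p = 0.9997). Egln1 and bright Egln3 signals correlated at r = 0.97 over the 16 arrays and at 0.68 after group means were removed. Both probes share each array's RNA and labelling.

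**Figure D3:**
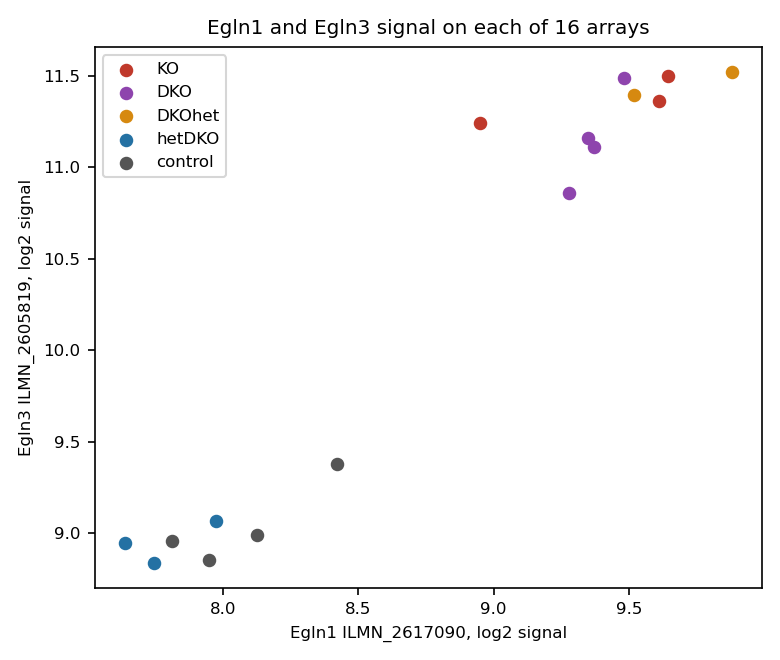
Log2 signal of the bright Egln3 probe against that of the Egln1 probe ILMN_2617090, 1 point per array, coloured by genotype. The KO, DKO and DKOhet arrays form a cluster at the upper right (Egln3 at 10.86 or more, Egln1 at 8.95 or more), and the hetDKO and control arrays one at the lower left (Egln3 at 9.38 or less, Egln1 at 8.42 or less).

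Egln2 encodes the prolyl hydroxylase that is known not to be induced by low oxygen in most cells, and its probe did not pass in any comparison. Its log2 signal was 8.74, 8.96 and 9.03 on the KO arrays, 8.86, 8.94, 8.56 and 9.11 on the DKO arrays, and 9.27 and 9.16 on the DKOhet arrays. It was 8.999, 9.285 and 8.837 on the hetDKO arrays and 9.28, 9.20, 8.89 and 9.51 on the control arrays. All groups overlapped those of control. The differences from control were -0.31 in KO (interval -0.66 to 0.04), -0.35 in DKO (-0.67 to -0.03), -0.005 in DKOhet (-0.40 to 0.39) and -0.18 in hetDKO hearts (-0.53 to 0.17), with a limma adjusted p of at least 0.142. The upper ends of these intervals are under the 2.32, 2.11 and 2.41 of the bright Egln3 probe.

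Vhl encodes the part of the ubiquitin ligase that recognises hydroxylated HIF alpha. Its log2 signal was 9.54, 9.59 and 9.66 on the KO arrays, 9.13, 9.56, 9.59 and 9.58 on the DKO arrays, and 9.67 and 9.46 on the DKOhet arrays. It was 9.70, 9.58 and 9.35 on the hetDKO arrays and 9.06, 9.26, 9.09 and 9.06 on the control arrays. Every KO, DKOhet and hetDKO array was above every control array, and DKO replicate 1 fell among the control arrays.

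The KO difference of Vhl was 0.48 (SE 0.13), or 1.40-fold (limma adjusted p = 0.0391). It was lost in 6 of 7 fits that left out 1 array, all but that without control replicate 2, and over the 7 the adjusted p lay between 0.0442 and 0.112. Over all alternatives the call was lost in 10 of 19. The difference from control was 0.35 in DKO (limma adjusted p = 0.0722), 0.45 in DKOhet (limma adjusted p = 0.0753) and 0.43 in hetDKO hearts (unadjusted p = 0.00506, limma adjusted p = 0.998). Vhl averaged 9.60 ± 0.06 in KO (SD, n = 3), 9.46 ± 0.22 in DKO (SD, n = 4), 9.56 ± 0.15 in DKOhet (SD, n = 2), 9.55 ± 0.18 in hetDKO (SD, n = 3) and 9.11 ± 0.10 in control hearts (SD, n = 4), and DKO hearts differed from hetDKO hearts by -0.08 (interval -0.36 to 0.20, limma adjusted p = 0.752). In hetDKO hearts the Vhl interval (0.15 to 0.71) lay above 0, while those of the Egln1 and Egln3 probes all held 0.

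Hif1a encodes the alpha subunit found in most tissues. Its probe had log2 signals of 9.70, 9.24 and 9.57 on the KO arrays, 9.64, 9.61, 9.73 and 9.69 on the DKO arrays, and 9.35 and 10.04 on the DKOhet arrays. It had 10.07, 9.79 and 9.85 on the hetDKO arrays and 10.08, 9.81, 9.95 and 10.98 on the control arrays. All KO and DKO arrays were below all control arrays, and control replicate 4 was the highest of the 16.

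The Hif1a difference from control was -0.70 in KO (SE 0.24, limma adjusted p = 0.0865), -0.54 in DKO (SE 0.22, limma adjusted p = 0.119), -0.51 in DKOhet (SE 0.27, limma adjusted p = 0.259) and -0.30 in hetDKO hearts (SE 0.24, limma adjusted p = 0.998). None passed the test, and no alternative processing made the KO or DKO value pass. Without control replicate 4 the KO difference was -0.44 and the DKO difference -0.28. DKO and hetDKO hearts differed by -0.24 (interval -0.74 to 0.27, limma adjusted p = 0.588).

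Arnt encodes the shared partner of the alpha subunits. The brighter of its probes, ILMN_2728802, averaged 8.13 ± 0.25 in KO (SD, n = 3), 8.01 ± 0.22 in DKO (SD, n = 4), 7.85 ± 0.18 in DKOhet (SD, n = 2), 7.77 ± 0.11 in hetDKO (SD, n = 3) and 7.90 ± 0.21 in control hearts (SD, n = 4). Its groups overlapped, and its differences from control lay between -0.13 and 0.23 (limma adjusted p of at least 0.381). The dimmer probe, ILMN_2607563, had log2 signals of 7.21, 6.80 and 6.33 on the KO arrays, 6.74, 6.79, 6.74 and 6.88 on the DKO arrays, and 6.17 and 6.52 on the DKOhet arrays. It had 6.30, 6.30 and 6.27 on the hetDKO arrays and 6.22, 6.06, 6.27 and 6.59 on the control arrays.

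All 4 DKO arrays were above all hetDKO and control arrays by this dimmer Arnt probe, and KO arrays overlapped control. The difference was 0.50 in DKO against control (limma adjusted p = 0.0552) and 0.49 in KO against control (limma adjusted p = 0.0985), and no comparison passed. Of the 8 fits that left out 1 array, the DKO value passed in 1, without control replicate 4 (adjusted p = 0.0308, against up to 0.133 in the others). Of 7 such fits the KO value passed in 1, without KO replicate 3 (difference 0.72, adjusted p = 0.0252), and was 0.28 without KO replicate 1 (adjusted p = 0.368). With the replicate block, which pairs DKO and control arrays, the DKO adjusted p was 0.0489. It was above background on 4 of 4 DKO arrays, 2 of 3 KO arrays, 1 of 2 DKOhet arrays, 0 of 3 hetDKO arrays and 1 of 4 control arrays. In DKO hearts the brighter probe differed from control by 0.12 (interval -0.19 to 0.42), against 0.50 (interval 0.15 to 0.85) for the dimmer one, and the difference between the probes was not tested.

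Hif3a encodes an alpha subunit with splice forms that restrain the others. Its log2 signal ranged over 7.20 to 7.79 in KO, 7.16 to 7.73 in DKO, 7.13 to 7.31 in DKOhet, 7.53 to 7.70 in hetDKO and 6.96 to 7.62 in control hearts. The differences from control were between -0.21 and 0.17, with a limma adjusted p of at least 0.602. Epas1, which encodes the alpha subunit HIF-2alpha known from endothelium, was near background. Its probe was detected on 1 of 3 KO arrays and 1 of 4 control arrays, and on none of the DKO, DKOhet and hetDKO arrays, with intensities of 148.7 to 254.4 over all 16. No difference of Epas1 was detectable at this signal.

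**Figure D4:**
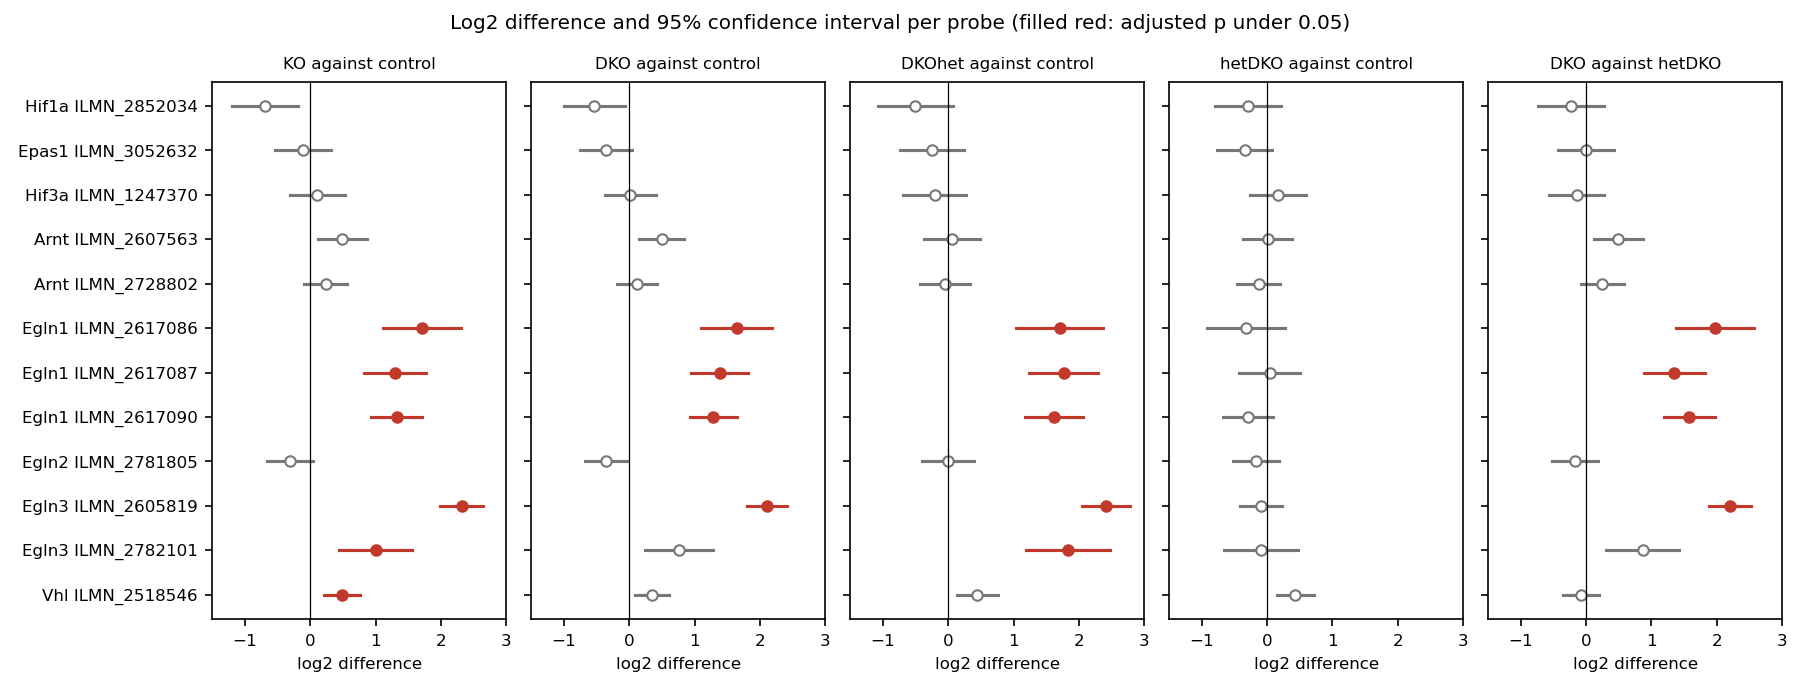
Log2 difference of each probe with its 95% confidence interval, for KO, DKO, DKOhet and hetDKO hearts against control and for DKO against hetDKO hearts. Filled red points passed a limma adjusted p of 0.05 over all 14058 probes. The probes of Egln1 and the bright probe of Egln3 lie right of 0 in every panel but that of hetDKO against control, where no point passed.

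The loss of Axin2 beside Rbpj was addressed by DKO against KO and DKO against DKOhet. None of the 12 probes passed in limma for DKO against KO, where 0.0142% of all probes passed. There 0 of the 12 had an unadjusted p under 0.05, beside 706 of all 14058 probes. None passed for DKO against DKOhet either, where 0% of all probes did. There 551 of all 14058 probes had an unadjusted p under 0.05, and so did 2 of the 12. These were the dim Egln3 probe (log2 difference -1.07, unadjusted p = 0.00295, limma adjusted p = 0.9997) and the dimmer Arnt probe (0.44, unadjusted p = 0.0426, limma adjusted p = 0.9997). The DKO against hetDKO difference was also set against the KO against control difference in 1 contrast, added after the data had been seen. The bright Egln3 probe differed between them by -0.11 (interval -0.57 to 0.35, limma adjusted p = 0.985), and the Egln1 probes by 0.26, 0.05 and 0.26 (adjusted p of at least 0.959). Vhl differed by -0.56 (interval -0.96 to -0.17, unadjusted p = 0.00825, limma adjusted p = 0.938). Of all 14058 probes, 1 passed this contrast. HetDKO hearts carry MesP1-cre and RBPJlox/+ beside the loss of Axin2, and control hearts were labelled wild type. In this contrast an effect of Axin2 cannot be told apart from effects of those alleles.

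Other genes of the pathway were counted from 2 lists. Of 44 genes known to be induced by HIF, 39 were measured, including Egln1 and Egln3. Of these, 25 rose in KO, 26 in DKO and 25 in DKOhet hearts against control, and 24 in DKO against hetDKO hearts, with 0 lower in each. Among all probes, 3.61%, 6.68%, 4.3% and 4.08% were higher in the same order, and 0% passed in hetDKO hearts. In hetDKO hearts 0 of the 39 passed in either direction in limma, and 1 had an unadjusted p under 0.05, as did 545 of all 14058 probes. Without Egln1 and Egln3 the counts of the remaining 37 were 23, 24, 23, 22 and 0 in the same order. Their median log2 difference was 0.83 in KO, 0.86 in DKO, 0.92 in DKOhet and -0.04 in hetDKO hearts against control. The medians over all probes were -0.02, -0.02, -0.02 and 0.00. The list was written with earlier results of these data known and is not independent evidence of its direction.

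The 5 genes of that list with the smallest adjusted p in KO against control were Egln3 itself, Bhlhe40, Ddit4, Ndrg1 and Stc2. Bhlhe40, a transcriptional repressor, averaged 11.79 ± 0.20 in KO hearts (SD, n = 3) and 8.57 ± 0.25 in control hearts (SD, n = 4), a log2 difference of 3.22 (limma adjusted p = 5.81e-06). Ddit4, which inhibits mTORC1, differed by 2.50 in KO and 2.44 in DKO hearts (limma adjusted p = 2.79e-05 and 1.02e-05). Ndrg1, a stress-responsive protein, differed by 3.01 and 3.08 (limma adjusted p = 2.82e-05 and 8.37e-06), and Stc2, a secreted glycoprotein, by 2.90 and 2.86 (limma adjusted p = 3.86e-05 and 1.80e-05). The 14 measured genes that did not pass in KO hearts include Ldha, a glycolytic enzyme, at 15.50 ± 0.09 in KO (SD, n = 3) and 15.45 ± 0.05 in control hearts (SD, n = 4), chosen here after its values were seen. The Ldha probe was among the brightest of the list, and whether saturation limits such probes was not tested.

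The second list held 26 partners and regulators of HIF and its sensors, of which 21 were measured. In KO and hetDKO hearts 0 of the 21 passed against control in limma, with 5 and 1 at an unadjusted p under 0.05. Of all 14058 probes, 3462 in KO and 545 in hetDKO hearts had an unadjusted p under 0.05. Of all probes, 3.61% were higher and 3.97% lower in KO hearts, and 0% passed in hetDKO hearts. In DKO and DKOhet hearts against control 11 and 8 of the 21 had an unadjusted p under 0.05. In DKO against hetDKO hearts 9 had one. Of all 14058 probes, 4015, 3582 and 3455 had one in the same order. In DKO hearts Siah2 (log2 difference 1.12, limma adjusted p = 0.0205) and Wsb1 (0.53, limma adjusted p = 0.0104) rose, and Nedd8 fell (-0.54, limma adjusted p = 0.0146). Thus 2 of the 21 rose and 1 fell in DKO hearts, beside 6.68% of all probes higher and 6.51% lower. The Siah2 difference from control was of similar size in KO (1.005, limma adjusted p = 0.0607) and DKOhet hearts (1.099, limma adjusted p = 0.0662). It did not pass there, so the calls do not set DKO hearts apart for Siah2. In hetDKO hearts the Siah2 difference was 0.42 (limma adjusted p = 0.998). Siah2 is a ubiquitin ligase that targets EGLN3, Wsb1 a ubiquitin ligase component reported to target VHL, and Nedd8 the modifier that activates cullin ligases such as that of VHL. In DKOhet hearts Wsb1 rose (0.93, limma adjusted p = 0.00217) and Senp1 and Commd1 fell (-0.65 and -0.36, limma adjusted p = 0.0324 and 0.0394). Here 1 of the 21 rose and 2 fell, beside 4.3% of all probes higher and 4.32% lower. In DKO against hetDKO hearts Ep300, a HIF coactivator, rose (0.51, limma adjusted p = 0.0457), and Nedd8 and Siah1b fell (-0.55 and -0.51, limma adjusted p = 0.0280 and 0.0374). Here too 1 of the 21 rose and 2 fell, beside 4.08% of all probes higher and 3.78% lower. Without DKO replicate 3, hetDKO replicate 1 or hetDKO replicate 3, 0 of the 21 passed in DKO against hetDKO hearts, and the rise of Ep300 was lost in all fits that left out 1 array but that without hetDKO replicate 2. In DKO against control 1 gene rose in place of 2 without DKO replicate 3, DKO replicate 4 or control replicate 1. With the replicate block, which pairs DKO and control arrays, 4 of the 21 fell in DKO against control in place of 1. The falls in DKOhet hearts were lost without either DKOhet array and without control replicate 1, 2 or 3. The list's median difference was -0.04 in KO, -0.20 in DKO, -0.16 in DKOhet and 0.02 in hetDKO hearts against control. In DKO against hetDKO hearts it was -0.23. The medians over all probes were -0.02, -0.02, -0.02, 0.00 and -0.01 in the same order. Whether the list as a set was lower was not tested.

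**Figure D5:**
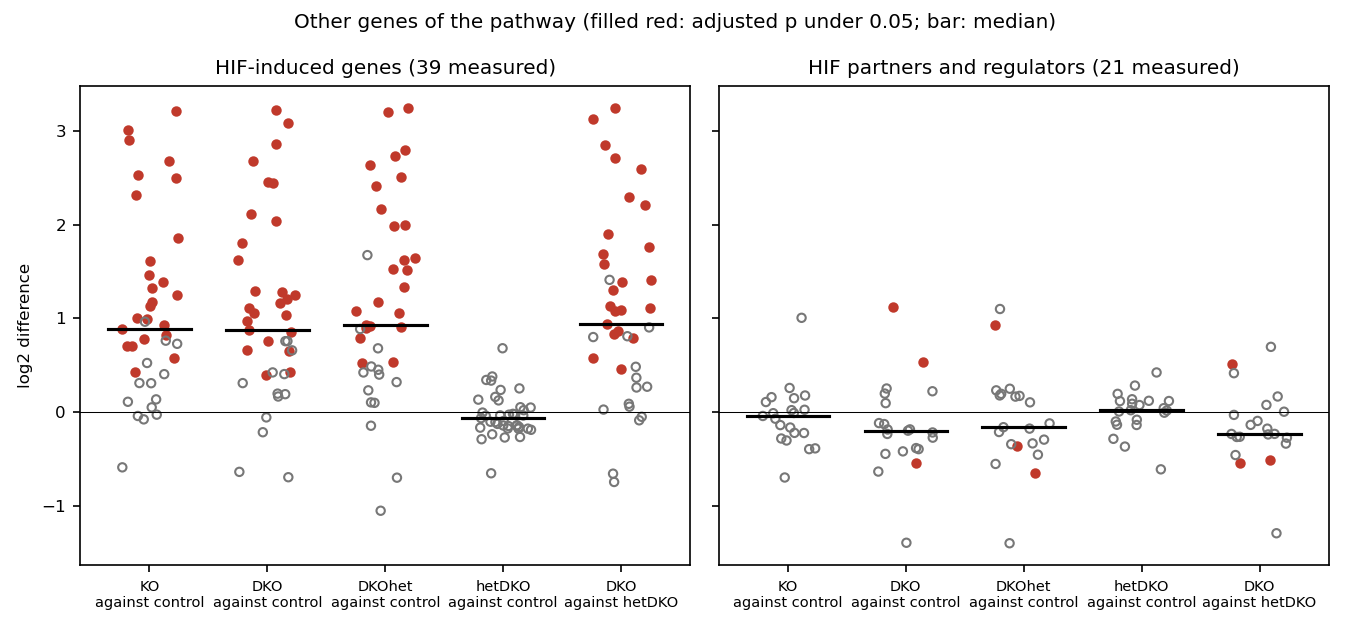
Log2 differences of the measured genes of both lists in 5 comparisons, 1 point per gene, with filled red points past a limma adjusted p of 0.05 and a bar at each median. Most HIF-induced genes lie above 0 in KO, DKO and DKOhet against control and in DKO against hetDKO, where 24 to 26 of 39 passed, and around 0 in hetDKO against control, where 0 passed. The medians of the partners and regulators were -0.04 in KO, -0.20 in DKO, -0.16 in DKOhet and 0.02 in hetDKO against control. In DKO against hetDKO their median was -0.23.

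The probes most like the bright Egln3 probe over the 16 arrays were those of Bhlhe40 (Pearson r = 0.990), Ier3 (0.987), Fam162a (0.987), Nrn1 (0.986) and Bnip3l (0.984). With group means taken off, these correlations were 0.73, 0.76, 0.78, 0.76 and 0.63. The probes most like the Egln1 probe ILMN_2617090 were those of Aldoa (0.982), Kdm3a (0.981), Rora (0.981), P4ha1 (0.974) and Egln3 (0.973), or 0.82, 0.80, 0.75, 0.69 and 0.68 with group means off. The points share their arrays, and each correlation was lower once the group means were off.

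Markers of other cell types that a whole heart can hold were read beside these results. Of 9 measured endothelial and endocardial markers and of 9 erythroid markers, 0 passed in limma in KO or DKO hearts against control, with 1 at an unadjusted p under 0.05 in each list and genotype. For the erythroid list these were Hbb-b2 in KO hearts (log2 difference 2.51, SE 0.78) and Klf1 in DKO hearts (-1.63, SE 0.57). Of 9 myocardial markers 0 passed in KO or DKO hearts, and 0 had an unadjusted p under 0.05. Among all probes, 3.61% were higher and 3.97% lower in KO, 6.68% and 6.51% in DKO, and 4.3% and 4.32% in DKOhet hearts. An unadjusted p under 0.05 was seen for 3462 of all 14058 probes in KO, 4015 in DKO, 3582 in DKOhet and 545 in hetDKO hearts. With so few markers, a count of 0 does not show an unchanged mix of cells. Of the endothelial markers, Flt1 rose in DKOhet against control (log2 difference 0.85, limma adjusted p = 0.0464), and Flt1 (0.77, 0.0439) and Pecam1 (0.63, 0.0394) rose in DKO against hetDKO hearts. In DKOhet hearts 4 of these 9 markers had an unadjusted p under 0.05. In DKO against hetDKO hearts 2 of the 9 rose, beside 4.08% of all probes higher. Of 5 hepatic and yolk sac markers 0 passed in KO or DKO hearts, with 1 and 0 at an unadjusted p under 0.05. Of 6 epicardial markers, 2 rose in KO, 2 in DKO and 3 in DKOhet hearts, and 0 in hetDKO hearts in limma, where 1 had an unadjusted p under 0.05. Their summed signal was 5606 to 8409 in KO, 3925 to 12012 in DKO, 7689 to 10025 in DKOhet, 3826 to 5167 in hetDKO and 2423 to 4142 in control hearts, and 5 or 6 of the 6 were detected on every array. The risers were Wt1 and Krt19 in KO, DKO and DKOhet hearts and Tbx18 in DKOhet hearts. In DKO against hetDKO hearts 1 of the 6 rose, beside 4.08% of all probes higher. The median difference of the 6 was 0.77 in KO, 0.89 in DKO, 1.60 in DKOhet and 0.61 in hetDKO hearts against control. It was 0.22 in DKO against hetDKO hearts. Of 3 neural markers, 1 fell in KO, DKO and DKOhet hearts (Dbx1). The part of these cell types in the Egln1 and Egln3 differences was not tested.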

How the data were processed

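Total RNA was extracted with Trizol and RNeasy columns and labelled as biotinylated cRNA, per the labels' protocols. The deposited non-normalised table gives an average bead intensity on a linear scale, without background correction, and a detection p-value for each probe and array, per the file headers. The authors' deposited value table (intensity on a linear scale, equal quantiles in each column) was used only as an alternative. BeadStudio is named in the submitters' processing notes; its version is not given in the sources read.

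Background was removed with limma 3.58.1 (R 4.3.3; normexp, fitted to the detection p-values). Then 16 was added as an offset and the log2 values were quantile normalised. The tests used the 14058 of 25696 probes detected (p under 0.05) on 2 or more arrays. 1 mean per genotype was fitted over all 16 arrays (11 residual and 3.52 prior degrees of freedom) with eBayes. In each of 7 contrasts the two-sided p-values of these probes were adjusted by Benjamini-Hochberg, with calls at 0.05. The script was tested on simulated data. Exact permutation tests over arrays were used for the difference between the Egln3 probes.

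Probe names come from GEO's platform annotation, which names 13238 of the kept probes and leaves 820 unnamed here; each of the 13928 annotated probes has 1 symbol, and 13923 matched a current Entrez entry. Gene positions and promoters are from RefSeq. All probes of the 9 genes are named; of each pathway list, the 5 genes of smallest adjusted p in KO or DKO against control, and any called count of 5 or fewer; and the 5 probes most like the brightest Egln3 and Egln1 probes. A gene of a list is represented by its brightest probe. The members and lists were chosen with earlier results of these data known. Alternatives changed the offset, background correction, normalisation, filter, array weights, beadchip, replicate block and each array in turn. Same-numbered arrays deviated together in DKO against control (r of 0.175 to 0.312 in 4 pairs) and DKO against KO (0.127 to 0.241 in 3 pairs), so there the replicate numbers were taken as pairs on the basis of the data, not of the labels. Odd-numbered KO, DKO and control arrays lay on beadchip 1 and even-numbered ones on beadchip 2, and the part of the beadchip in the pairing was not tested. The number of arrays limits the precision.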

Additional observations from a re-analysis of the deposited data

Results flagged for a closer look

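In 4 of 24 groups of 4 arrays the highest or lowest array stood apart from the rest of its group, by the gap to its nearest neighbour as a share of the group's range (Dixon's test at 95%); chance flags about 1 in 20. Vhl was lowest on DKO replicate 1 (share 0.934), at 9.13 beside 9.56 on the nearest DKO array; without that array the DKO against control difference of Vhl was 0.46 (limma adjusted p = 0.0201), in place of 0.35 (0.0722). Vhl was highest on control replicate 2 (share 0.85), at 9.26 beside 9.09. The dim Egln3 probe was highest on control replicate 4 (share 0.938), at 5.93 beside 5.44, and was not above background there; without that array the limma adjusted p in DKO against control was 0.0383, in place of 0.0513. Hif3a was lowest on control replicate 4 (share 0.858), at 6.96 beside 7.53. Control replicate 4 also had the highest Hif1a signal of all 16 arrays. No cause was tested.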

How the results depend on the processing

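The counts of probes that passed were within 1.5 times of the reported ones under nearly all alternatives. The exceptions were array weights, with 7 in DKO against control in place of 4, and the arrays of beadchip 2 alone, with 1 in KO, 1 in DKO and 1 in DKOhet against control and 0 in DKO against hetDKO; that subset has fewer arrays. Leaving out 1 array gave 4 to 5 in KO, 4 to 6 in DKO, 4 to 5 in DKOhet and 4 to 5 in DKO against hetDKO. The bright Egln3 probe passed against control under all alternatives, with log2 differences of 2.11 to 2.45 in KO, 1.91 to 2.22 in DKO and 2.20 to 2.52 in DKOhet hearts. The Egln1 probes lost their calls within beadchip 2; ILMN_2617087 also lost it within beadchip 1 in DKO against hetDKO (limma adjusted p = 0.0545), and ILMN_2617086 without DKOhet replicate 1 (0.0534). Vhl in KO also failed under median scaling (0.0538) and within beadchip 1 (log2 difference 0.53, limma adjusted p = 0.166). Within beadchip 2, with 1 KO array, the Vhl difference was 0.43.

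The difference between groups in bright minus dim Egln3 signal was 0.92 in KO against control within beadchip 2, 1.23 and 1.45 in DKO against control within beadchips 1 and 2, and 1.24 to 1.49 there when 1 array was left out, where the exact permutation p was 0.0571, the smallest it could be. For hetDKO it was -0.061 and 0.073 within beadchips 1 and 2. With a replicate block, 5 probes passed in KO, 6 in DKO and 5 in DKOhet against control and 4 in DKO against hetDKO, and the difference in bright minus dim Egln3 signal was 1.30, 1.34, 0.59 and 1.34. The block gained the dim Egln3 and dimmer Arnt probes in DKO and lost Vhl in KO, where the numbers did not pair the arrays (limma adjusted p = 0.0564); it changed no other call among the 12 probes. Among the partners and regulators, with the block 4 fell in place of 1 in DKO and 3 in place of 2 in DKOhet against control, and 0 rose in place of 1 in DKO against hetDKO; 1 HIF-induced gene fell in DKO and 1 in DKOhet. No called value changed direction. Of 952 alternative values of differences without an unadjusted p under 0.05, 80 had the other sign. Signals near background limit the dim Egln3 probe, the dimmer Arnt probe and Epas1. Under cyclic loess, median scaling and the authors' value table, 24 to 25 of the 39 HIF-induced genes rose in each comparison where they had risen, and within beadchip 2 alone 6 did in KO, 5 in DKO and 7 in DKOhet against control and 0 in DKO against hetDKO. Of the partners and regulators, 7 fell in DKO against control with array weights and 6 with the beadchip as a block, in place of 1; in KO, 2 rose and 3 fell with array weights and 1 rose with the beadchip as a block, in place of 0.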
